A study of Mus musculus with 48 samples.

Results

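SR proteins are splicing factors named for a domain rich in serine and arginine. The 10 genes described here (Srsf1, Srsf2, Srsf3, Srsf4, Srsf5, Srsf6, Srsf7, Srsf9, Srsf10 and Srsf11) encode members of this family and were taken by symbol from the 20171 genes of the deposited count table. Each was counted in all 48 libraries, from 653 counts of Srsf9 to 66056 counts of Srsf2, and all 10 passed the filter on low counts in every comparison. An SR protein binds enhancer sequences in exons through RNA recognition motifs and brings spliceosome components to nearby splice sites. Their genes are known for poison exons, conserved alternative exons with an in-frame stop codon. An SR protein often promotes inclusion of the poison exon in its own transcript, which is then degraded by nonsense-mediated decay, a pathway that depends on the helicase Upf1. The deposited table holds 1 count per gene and library, so transcripts with and without a poison exon cannot be told apart in any value below.

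The samples were mouse embryonic stem cells of the strain 129S6/SvEvTac. RNA was sequenced from cleared lysates (inputs) and from what magnetic beads with an HA antibody recovered from them (immunoprecipitates, IPs). Every line carried the reporter GFP_5xT71BS and a stably transfected FLAG-Cas9 linked by T2A to blasticidin resistance, and grew on gelatin with LIF. The untagged control had nothing further, and the second line had the tag HA-AVI on Tnrc6a (written HA-Tnrc6a). The last 2 lines had the same tag and, in addition, the genotype Ago2-/- or Upf1-/- (written Ago2 knockout and Upf1 knockout), so both knockouts are compared with HA-Tnrc6a cells. Tnrc6a is a GW182 protein, which links Argonaute proteins such as Ago2 to the enzymes of microRNA silencing. Each genotype and fraction had 3 libraries in each of 2 experiments, labelled experiment 3 and experiment 4. Columns numbered 1 to 3 for a genotype and fraction were taken as experiment 3 and columns 4 to 6 as experiment 4, a mapping inferred from the order of labels and columns. The dishes were grown in triplicate, and the number of clones behind each line is not given in the sources used here. P-values therefore measure the spread between these samples, which may be technical.

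Promoter sequences from RefSeq (GRCm38.p6) are shown for 3 of the genes, Srsf4 and Srsf5, which were higher in lysates labelled Upf1 knockout, and Srsf6, which was lower there and had a pattern across libraries unlike the other 9. Each is the stretch before the first annotated transcript start, on the plus strand, with matches to the GC box (GGGCGG, both strands) in capitals. The Srsf4 stretch is chr4:131873387-131873529, the Srsf5 stretch chr12:80945249-80945494 and the Srsf6 stretch chr2:162931258-162931507.
Srsf4: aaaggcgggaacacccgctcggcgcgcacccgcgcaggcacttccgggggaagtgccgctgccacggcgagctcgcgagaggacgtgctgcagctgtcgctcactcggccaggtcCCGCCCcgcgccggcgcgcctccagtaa
Srsf5: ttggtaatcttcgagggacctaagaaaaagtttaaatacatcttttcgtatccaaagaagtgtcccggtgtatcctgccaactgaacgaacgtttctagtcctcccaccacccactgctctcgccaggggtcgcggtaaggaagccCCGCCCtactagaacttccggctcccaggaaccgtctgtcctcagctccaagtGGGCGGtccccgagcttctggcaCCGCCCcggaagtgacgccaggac
Srsf6: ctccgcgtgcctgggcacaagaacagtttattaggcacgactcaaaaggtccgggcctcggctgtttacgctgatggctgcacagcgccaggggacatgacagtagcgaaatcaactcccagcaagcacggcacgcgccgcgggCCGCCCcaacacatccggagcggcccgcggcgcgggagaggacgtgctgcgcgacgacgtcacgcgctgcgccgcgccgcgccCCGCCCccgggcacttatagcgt
The Srsf4 stretch is 74.1% G and C with 1 match, the Srsf5 stretch 56.5% with 3 matches and the Srsf6 stretch 68.4% with 2 matches. The reference also gives, for each gene, a window of 250 bases before 1 chosen transcript start. That start lies after the first annotated one for all but Srsf3 and Srsf6, so the other windows reach into the annotated gene, and those of Srsf1, Srsf2 and Srsf10 lie wholly inside it. In these windows GGGCGG occurred in 9 of the 10 genes (all but Srsf3) and in 32.9% of 27025 promoters of the reference. CCAAT occurred in 3 of 10 against 34.5% of promoters, TATAAA in 2 of 10 (Srsf2 and Srsf3) against 13.0%, and CACGTG in 0 of 10 against 6.05%, each counted on both strands. The 10 windows had a median G and C content of 66.8%, against 52.0% over all promoters, and a median of 29 CpG dinucleotides against 6. A match describes letters only and shows no binding of a factor.

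In the same annotation, Srsf1 lies at chr11:88046499-88053757, Srsf2 at chr11:116849897-116853675, Srsf3 at chr17:29032660-29043372, Srsf4 at chr4:131873530-131901725 and Srsf5 at chr12:80945495-80950507. Srsf6 lies at chr2:162931508-162937121, Srsf7 at chr17:80200080-80207369, Srsf9 at chr5:115327163-115333843, Srsf10 at chr4:135855752-135869908 and Srsf11 at chr3:158010915-158036667. RefSeq lists transcripts without a coding sequence for 6 of the 10, with 14 for Srsf11, 4 for Srsf2 and 1 each for Srsf1, Srsf3, Srsf7 and Srsf9. Mfsd11 overlaps Srsf2, Gm12992 overlaps Srsf4 and Gatc overlaps Srsf9. Whether reads were counted by strand is not given in the sources used here, which makes the counts of these 3 genes uncertain. The pseudogene Srsf3-ps took 5.48% to 8.22% of the counts of the pair with Srsf3, so reads of Srsf3 may be split.

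Total counts were 15383953 to 19595405 per input and 11471544 to 18344233 per IP in experiment 3, and 26458831 to 37179105 per input and 25724085 to 73845953 per IP in experiment 4. The 8 embryonic stem cell markers summed to 6400 to 8089 CPM (reads per 1e6 counted reads, after TMM scaling over all 48 libraries) in the inputs, with none at 0. Summed markers of primitive endoderm were 5.91 to 53.0 CPM, those of mesoderm or feeder cells 27.6 to 57.6 CPM (5 of 6 in the table) and neural ones 47.5 to 110.1 CPM (3 of 4 in the table). Inputs labelled Upf1 knockout had the lowest neural sums (47.5 to 64.4 CPM, against 76.8 to 85.1 CPM in HA-Tnrc6a) and the highest mesoderm sums (46.8 to 57.6 against 36.2 to 48.4 CPM), and Ago2 knockout inputs the lowest endoderm sums (5.91 to 6.45 against 17.3 to 27.2 CPM). These sums differ between the groups of the comparisons below, and their part in the results was not tested. Ago2 mRNA was lower in Ago2 knockout inputs (94.6 ± 2.204 and 129.9 ± 5.65 CPM in experiments 3 and 4, mean ± SD, n = 3) than in HA-Tnrc6a inputs (207 ± 2.62 and 316 ± 11.6 CPM). Upf1 mRNA was higher, not lower, in the inputs labelled Upf1 knockout (123 ± 0.874 and 139 ± 3.47 CPM, against 77.6 ± 4.95 and 98.5 ± 1.58 CPM), so the counts do not show the loss of Upf1 and directions below refer to libraries labelled Upf1 knockout.

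Per kilobase of gene length, Srsf2 was the most abundant of the 10 in HA-Tnrc6a inputs, with a median of 166 CPM per kb over 6 libraries (range 158 to 171). Srsf2 is a classical SR protein that stays in the nucleus and marks nuclear speckles. Next came a group whose neighbours overlapped in range, with medians of 86.3 CPM per kb for Srsf1, 84.3 for Srsf5, 82.2 for Srsf6 and 81.2 for Srsf7. Srsf9 (58.0 CPM per kb) and Srsf3 (52.3 CPM per kb) formed a lower pair with overlapping ranges. Srsf11 (30.7 CPM per kb), Srsf10 (30.6 CPM per kb) and Srsf4 (29.6 CPM per kb) were lowest and overlapped as well. The ranges left a gap only after Srsf2, after Srsf7 and after Srsf3, but they join both experiments, and the order changed between these. In experiment 3 Srsf9 was at 62.4 ± 0.587 and Srsf3 at 45.9 ± 0.557 CPM per kb (mean ± SD, n = 3). In experiment 4 they were at 52.7 ± 1.91 and 60.0 ± 1.71. Srsf5 and Srsf1 were at 88.3 ± 0.997 and 75.3 ± 1.98 in experiment 3, and at 79.8 ± 1.56 and 97.1 ± 1.75 in experiment 4. The order depends on the deposited gene length (2958 bases for Srsf2, 7899 for Srsf3). Before division by length, medians over the 24 inputs were 482 CPM for Srsf1, 464 for Srsf2 and 426 for Srsf3. A level per gene in bulk samples cannot tell fewer cells from less RNA per cell.

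**Figure D1:**
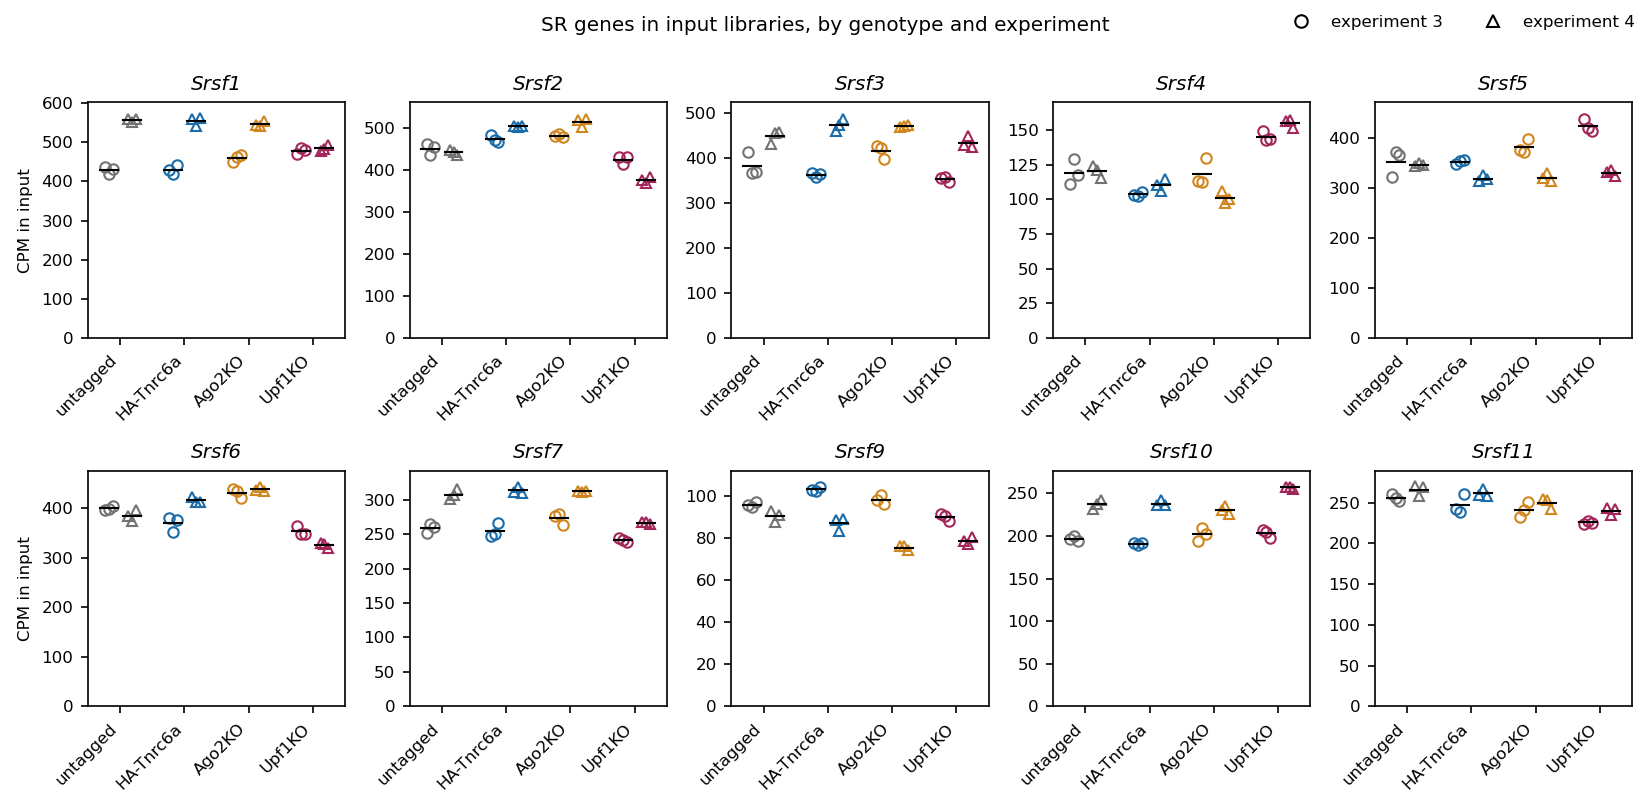
CPM (TMM-scaled over all 48 libraries) of each gene in the 24 inputs, by genotype, with circles for experiment 3, triangles for experiment 4 and a bar at each mean of 3 libraries. All 6 libraries labelled Upf1 knockout have more Srsf4 than any other input, and Srsf2 is lowest in the same genotype in both experiments.

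The first comparison asked whether the RNA of the SR genes differs in the lysate when the decay pathway of poison exon transcripts is targeted. Against HA-Tnrc6a inputs, the inputs labelled Upf1 knockout had more Srsf4, Srsf5 and Srsf10 and less Srsf2, Srsf3, Srsf6, Srsf7, Srsf9 and Srsf11, at an adjusted p under 0.05 in edgeR's quasi-likelihood test. Srsf1 did not pass over both experiments. Calls were common in this comparison, with 58.6% of 19444 genes called (29.5% higher and 29% lower), against 3 higher and 6 lower of the 10. The median log2 fold change of the 10 was -0.10, and that of all tested genes -0.018. Changes were small apart from Srsf4, and none reached a doubling.

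Srsf4 (SRp75), the largest of the classical SR proteins, changed most. HA-Tnrc6a inputs held 103, 103 and 105 CPM in experiment 3 and 110.3, 106 and 115 CPM in experiment 4. Inputs labelled Upf1 knockout held 149, 143 and 143 CPM and 157, 157 and 152 CPM. All 6 were above every other input, of which the highest, an Ago2 knockout library, had 130.0 CPM. The rise was 40.6%, a log2 fold change of 0.49 ± 0.026 (SE; adjusted p = 3.34e-21, edgeR), and it was 0.48 ± 0.040 in experiment 3 and 0.51 ± 0.034 in experiment 4. The overlapping gene Gm12992 moved with it (log2 fold change 0.42 ± 0.029), and the share of these reads that belongs to Srsf4 was not tested.

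Srsf5 (SRp40) and Srsf10 (SRp38, which represses splicing when dephosphorylated after heat shock or in mitosis) were higher by less. Srsf5 stood at 348, 354 and 355 CPM in HA-Tnrc6a inputs and at 438, 419.7 and 413 CPM in inputs labelled Upf1 knockout in experiment 3. In experiment 4 the values were 313, 325 and 317 CPM and 331, 335 and 323 CPM, and the ranges overlapped. The log2 fold change of Srsf5 was 0.16 ± 0.022 over both experiments (adjusted p = 2.12e-08, edgeR), 0.26 ± 0.035 in experiment 3 and 0.064 ± 0.029 in experiment 4, where it did not pass (adjusted p = 0.0577). Srsf10 rose by 7.33%, from 192, 189 and 192 to 207, 205 and 198 CPM in experiment 3 and from 236, 242 and 236 to 258, 258 and 256 CPM in experiment 4, with no overlap in either. Its log2 fold change was 0.10 ± 0.022 (adjusted p = 0.000123, edgeR) and did not pass in experiment 3 alone (0.080, adjusted p = 0.0618) or with all 48 libraries in 1 fit (adjusted p = 0.0663).

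Srsf2 (SC35) fell most among the 6 that were lower. It had 482, 471 and 466 CPM in HA-Tnrc6a inputs of experiment 3 against 430.0, 413 and 429 CPM with the Upf1 knockout label, and 504, 503 and 505 CPM against 376, 369 and 383 CPM in experiment 4. The ranges were apart in both experiments, and the gap was wider in experiment 4. Srsf2 fell by 18% (log2 fold change -0.29 ± 0.022, adjusted p = 1.16e-15, edgeR). Mfsd11, which overlaps Srsf2, was lower as well (-0.27 ± 0.078).

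Srsf6 (SRp55) stood at 380.0, 351 and 375 CPM in HA-Tnrc6a inputs and 363, 348 and 348 CPM in inputs labelled Upf1 knockout in experiment 3, with overlap. In experiment 4 it stood at 423, 411 and 412 CPM and 329.7, 328 and 319 CPM, without overlap. Its log2 fold change was -0.20 ± 0.023 (adjusted p = 1.32e-10, edgeR) but -0.071 in experiment 3 alone, which did not pass (adjusted p = 0.117). Srsf7 (9G8), which shuttles and has a zinc knuckle beside its RNA recognition motif, fell by 9.98% (-0.15 ± 0.023), with -0.084 in experiment 3 alone (adjusted p = 0.0596, not passing). Srsf9 (SRp30c) fell by 11.1% (-0.17 ± 0.028) and Srsf11 (p54) by 8.19% (-0.12 ± 0.024), both with ranges apart in each experiment. Srsf3 (SRp20), the smallest of the family and an adaptor for mRNA export, fell by 5.28% (-0.078 ± 0.023, adjusted p = 0.00282, edgeR), and this did not pass in experiment 3 alone, with library totals as the scaling (adjusted p = 0.168) or with all 48 libraries in 1 fit (adjusted p = 0.212). Gatc, which overlaps Srsf9, was lower in the same inputs (-0.23 ± 0.052).

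Srsf1 (ASF/SF2), a shuttling SR protein that also acts in mRNA export and translation, moved in opposite directions in the experiments. HA-Tnrc6a inputs had 428, 419.9 and 442 CPM in experiment 3 and those labelled Upf1 knockout 469.7, 486 and 481 CPM, a rise of 0.15 ± 0.035 on the log2 scale (adjusted p = 0.000839, edgeR). In experiment 4 the same groups had 559, 543 and 561 CPM and 479, 482 and 493 CPM, a log2 fold change of -0.18 ± 0.027 (adjusted p = 4.08e-07). The ranges did not overlap in either experiment. Inputs labelled Upf1 knockout lay close together in both experiments (469.7 to 492.7 CPM), while HA-Tnrc6a inputs were at 430.1 ± 11.3 and 554 ± 9.97 CPM (mean ± SD, n = 3), as untagged inputs were (429.6 ± 8.33 and 557 ± 3.93 CPM). Over both experiments the log2 fold change was -0.017 ± 0.023 (adjusted p = 0.530, 95% interval -0.061 to 0.027).

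An interaction term, experiment 4 less experiment 3, compared the size of these changes between the experiments. It passed for 5 of the 10, all of them lower in experiment 4, against 11.6% of all genes called (5.75% or 1118 higher and 5.84% or 1135 lower, or 801 and 1586 with library totals). Srsf1 had the largest difference (-0.32 ± 0.045, adjusted p = 5.41e-07, edgeR), followed by Srsf6 (-0.26 ± 0.046), Srsf2 (-0.24 ± 0.044) and Srsf5 (-0.19 ± 0.044). Srsf7 passed narrowly (-0.13 ± 0.045, adjusted p = 0.0464) and lost the call when any 1 of 9 libraries was left out, with adjusted p-values of 0.0584 to 0.128 (replicates 1, 2, 4 and 5 of HA-Tnrc6a and 1, 2, 4, 5 and 6 of the Upf1 knockout label). With all 48 libraries in 1 fit only Srsf1 and Srsf6 passed. All 4 primitive endoderm markers passed the same interaction, higher in experiment 4 (median log2 2.12, range 1.44 to 2.32), and their sum ranged from 8.10 to 53.0 CPM over the inputs labelled Upf1 knockout. Their part in these differences was not tested.

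**Figure D2:**
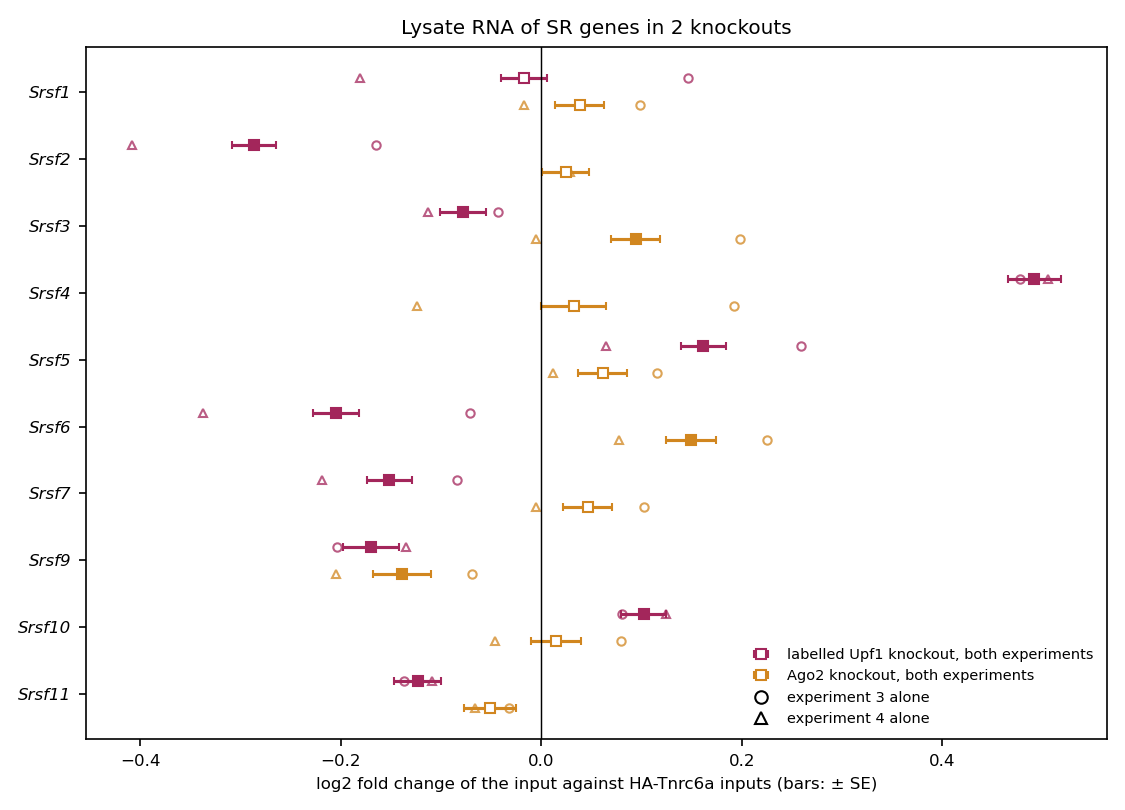
Log2 fold change of each gene in inputs labelled Upf1 knockout and Ago2 knockout against HA-Tnrc6a inputs. Squares with bars are estimates over both experiments ± SE (filled at an adjusted p under 0.05), circles and triangles the estimates in experiment 3 and experiment 4 alone. Srsf4 stands apart at 0.49 in inputs labelled Upf1 knockout, and the experiments give opposite signs for Srsf1.

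Other genes of the pathway were read from lists chosen with earlier results of these data known. Over all genes, 29.5% were higher and 29% lower in inputs labelled Upf1 knockout. Of 28 other SR and SR-related genes, 9 were higher (Luc7l, Rbm39, Tra2a, Rsrc2, U2af1l4, Tra2b, Rsrc1, Srrm1 and Acin1) and 9 lower (Ppig, Scaf4, U2af2, Snrnp70, Arglu1, Son, Luc7l2, Pnn and Luc7l3) in inputs labelled Upf1 knockout, and with library totals 13 were higher and 8 lower. Luc7l3 (-0.068) was at 0.072 in experiment 3 alone and did not pass there, with library totals or with all 48 libraries in 1 fit, where Pnn did not pass either. In experiment 3 alone Pnn (-0.030), Rsrc1 (0.10) and Acin1 (0.084) did not pass, nor did Luc7l2 (-0.041) in experiment 4 alone. Rbm39, an SR-related cofactor of U2AF, had a log2 fold change of 0.55 ± 0.022, Luc7l, a component of the U1 particle, 0.53 ± 0.025, and the SR-like regulators Tra2a and Tra2b 0.39 ± 0.023 and 0.23 ± 0.022. Among 10 tested kinases and nuclear importers of SR proteins (Srpk3 was not tested), 2 were higher (Tnpo1 0.15 and Clk3 0.11) and 4 lower (Dyrk1a -0.16, Srpk1 -0.11, Prpf4b -0.089 and Srpk2 -0.068), and with library totals 3 were higher and 2 lower. Of these 6, Clk3 (0.0021), Srpk1 (-0.033), Srpk2 (-0.083) and Prpf4b (-0.057) did not pass in experiment 3 alone, nor Dyrk1a (-0.071) and Srpk2 (-0.054) in experiment 4 alone. Of 9 decay factors, 8 were higher and 1, Smg8, was lower (-0.26 ± 0.041), with a median of 0.71. Smg9 (1.24 ± 0.053), Smg1 (0.80 ± 0.061), Smg5 (0.75 ± 0.023) and Upf2 (0.68 ± 0.030) were among those that rose. The 8 and 1 held under RLE, library totals, no count filter, DESeq2, the replicate block and experiment 4 alone, and 7 were higher in experiment 3 alone and with all 48 libraries in 1 fit.

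In the lysate of Ago2 knockout cells, 3 of the 10 SR genes differed from HA-Tnrc6a inputs, where 30.9% of 19641 genes were called (15.7% higher and 15.2% lower). Srsf6 was higher in both experiments, at 438, 435 and 420.0 CPM and 437, 442 and 434 CPM in Ago2 knockout inputs, above all HA-Tnrc6a libraries of the same experiment given above. It rose by 10.9% (log2 fold change 0.15 ± 0.025, adjusted p = 4.74e-06, edgeR), which is the opposite direction to the inputs labelled Upf1 knockout. Srsf9 fell by 9.19% (-0.14 ± 0.029, adjusted p = 0.000177), from 88.7, 83.5 and 89.2 to 76.3, 76.2 and 74.2 CPM in experiment 4, but did not pass in experiment 3 alone (-0.069, adjusted p = 0.349). Srsf3 was higher by 0.094 ± 0.025 (adjusted p = 0.00245), with 0.20 in experiment 3, -0.0057 in experiment 4 and an interaction of -0.21 ± 0.049 (adjusted p = 0.00520). The other 7 did not pass (-0.051 to 0.061), and leaving out replicate 3 of the HA-Tnrc6a inputs added Srsf5 (0.072, adjusted p = 0.0333) and Srsf7 (0.071, adjusted p = 0.0291). Srsf5 (0.061 over both experiments) also passed with RLE size factors (adjusted p = 0.0392), DESeq2 (adjusted p = 0.0368), the replicate block (adjusted p = 0.0152) and 5 of the libraries left out in turn, and Srsf3 lost its call with all 48 libraries in 1 fit (adjusted p = 0.220).

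Srsf4 differed between the experiments in the Ago2 comparison. Ago2 knockout inputs had 113, 113 and 130.0 CPM in experiment 3, above the HA-Tnrc6a inputs, and 106, 97.3 and 100.3 CPM in experiment 4, at or below them. The log2 fold changes were 0.19 ± 0.052 and -0.12 ± 0.035, and the interaction was -0.32 ± 0.065 (adjusted p = 0.000996, edgeR). Such differences passed for 2 of the 10 genes and for 5.94% of all genes (2.7% higher and 3.23% lower), and for 0 of the 10 with all 48 libraries in 1 fit. Srsf6 was called in addition with RLE size factors (-0.16, adjusted p = 0.0442), DESeq2 (adjusted p = 0.0210), the replicate block (adjusted p = 0.0183) and without 1 of 3 libraries (replicate 1 or 3 of the HA-Tnrc6a inputs, replicate 3 of the Ago2 knockout inputs). In the lists, 5 SR-related genes were higher and 3 lower in Ago2 knockout inputs, 1 kinase or importer was higher and 3 lower, and 4 decay factors were higher and 0 lower. The largest of these was Clk2, a kinase of SR proteins (-0.19 ± 0.035), which did not pass in experiment 3 alone (-0.054, adjusted p = 0.538).

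Both knockouts share their HA-Tnrc6a control, so they were also compared directly. Inputs labelled Upf1 knockout had more Srsf4 (0.46 ± 0.031), Srsf5 (0.096 ± 0.026) and Srsf10 (0.084 ± 0.026) than Ago2 knockout inputs. They had less Srsf6 (-0.36 ± 0.024), Srsf2 (-0.31 ± 0.024), Srsf7 (-0.20 ± 0.025), Srsf3 (-0.18 ± 0.025), Srsf11 (-0.076 ± 0.026) and Srsf1 (-0.060 ± 0.024). These are log2 fold changes ± SE with adjusted p-values from 1.51e-18 (Srsf6) to 0.0278 (Srsf1) in edgeR, where 62.3% of 19419 genes were called (30.9% higher and 31.4% lower). Srsf9 did not pass (-0.034 ± 0.030, 95% interval -0.094 to 0.025). For Srsf6 the 6 libraries labelled Upf1 knockout (318.8 to 363.1 CPM) lay below the 6 Ago2 knockout libraries (420.0 to 442.1 CPM). The call of Srsf1 was lost when any 1 of 4 libraries was left out, namely replicate 2 or 6 of the Ago2 knockout and replicate 1 or 4 of the Upf1 knockout label (adjusted p-values of 0.0647 to 0.100), and Srsf11 did not pass in either experiment alone. With library totals neither passed (Srsf1 -0.0020, adjusted p = 0.949, and Srsf11 -0.018, adjusted p = 0.556). Srsf10 was at 0.0063 in experiment 3 alone (adjusted p = 0.919, edgeR) and at 0.18 in experiment 4 alone. Srsf5 did not pass in experiment 4 alone (0.061, adjusted p = 0.0593, edgeR). With all 48 libraries in 1 fit Srsf1, Srsf5, Srsf10 and Srsf11 lost their calls.

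Untagged and HA-Tnrc6a inputs, which differ by no knockout, gave a scale for these differences. Of the 10 genes, 2 passed, where 15.4% of 19407 genes were called (7.67% higher and 7.74% lower). Srsf4 was higher in untagged inputs, at 111, 129 and 118 CPM and 124, 121 and 115 CPM (log2 fold change 0.16 ± 0.037, adjusted p = 0.00292, edgeR). Srsf2 was lower by 8.73% (-0.13 ± 0.029, adjusted p = 0.00218). Neither passed in experiment 3 alone (adjusted p = 0.102 for Srsf4 and 0.511 for Srsf2), where untagged replicate 1 stood lowest for Srsf4 (111 CPM). The other 8 lay between -0.027 and 0.060, and without replicate 1 of the untagged inputs Srsf5 passed as well (0.094, adjusted p = 0.00120). In experiment 4 alone Srsf5 (0.12, adjusted p = 0.00221), Srsf6 (-0.11, adjusted p = 0.00447) and Srsf3 (-0.081, adjusted p = 0.0497) also passed in edgeR. Srsf6 was at 0.11 in experiment 3 alone, where it did not pass. For Srsf4 the difference between these lines without a knockout was 0.16, against 0.49 for the Upf1 knockout label. For Srsf5 in experiment 4 alone the difference was 0.12, against 0.064 for that label. In the lists, 6 SR-related genes were higher and 1 lower in untagged inputs, 0 kinases or importers passed, and 1 decay factor was higher. Of these genes, Srrm2, Scaf1, Scaf8 and Rsrc2 did not pass in experiment 3 alone, nor Rbm39 and Scaf8 in experiment 4 alone. The decay factor, Upf3a, was at 0.036 in experiment 4 alone (adjusted p = 0.644, edgeR).

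The IPs of untagged cells show what the beads recover of the SR transcripts with no tag present. Relative to the inputs of the same cells, 8 of the 10 genes were higher and 1 was lower, where 35.7% of 19299 genes were called (18% higher and 17.8% lower). Srsf2 rose most, from 461, 435 and 453 CPM in the inputs to 1055, 1164 and 1143 CPM in the IPs of experiment 3, and from 448, 443 and 435 to 1942, 1563 and 1765 CPM in experiment 4. All 6 IPs were above all 6 inputs, at a fold of 3.13 (log2 1.65 ± 0.050, adjusted p = 2.50e-15, edgeR). The log2 fold change was 1.32 ± 0.073 in experiment 3 and 2.01 ± 0.063 in experiment 4, and the difference between them was not tested. Its neighbour Mfsd11 was higher as well (1.30 ± 0.065).

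Srsf5 (0.77 ± 0.064) and Srsf3 (0.75 ± 0.049) followed at a fold of 1.71 and 1.68, then Srsf7 (0.43 ± 0.043), Srsf4 (0.36 ± 0.048), Srsf6 (0.25 ± 0.044), Srsf1 (0.16 ± 0.042) and Srsf10 (0.16 ± 0.051). Srsf9 was the one that fell (-0.25 ± 0.047), with -0.41 in experiment 4 and -0.050 in experiment 3, where it did not pass (adjusted p = 0.759). Srsf11 did not pass (0.034 ± 0.062), with -0.14 in experiment 3 and 0.24 in experiment 4, and it passed without replicate 1 of the untagged IPs (0.10, adjusted p = 0.0485). Srsf1 passed in experiment 3 (0.35) and not in experiment 4 (0.0066). Srsf10 lost its call without replicate 2 (0.13, adjusted p = 0.0627) or replicate 4 (0.14, adjusted p = 0.0544) of the untagged IPs.

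These calls depend on the scaling. With library totals the median of all genes shifted by -0.17, 1997 genes were called higher and 7559 lower (3465 and 3427 with TMM), and 5 of the 10 SR genes stayed higher (Srsf2, Srsf3, Srsf4, Srsf5 and Srsf7), while Srsf1 (-0.0064), Srsf10 (-0.0099) and Srsf11 (-0.13) changed sign without passing. Among the 28 other SR-related genes 14 were higher and 2 lower in untagged IPs (7 and 7 with library totals), led by Pnn, a protein of exon junction complexes (1.09 ± 0.056), and Luc7l3 (0.80 ± 0.059). The kinases Clk1 (0.47 ± 0.061), Clk2 (0.39 ± 0.057), Clk3 (0.36 ± 0.059) and Clk4 (0.85 ± 0.074) were all higher, and 6 of 10 kinases and importers were higher and 3 lower in total. Of the 9 decay factors, 1 was higher and 1 lower (0 and 6 with library totals). Over all genes, 18% were higher and 17.8% lower with TMM.

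The enrichment compares IP over input in HA-Tnrc6a cells with IP over input in untagged cells, and asks which transcripts are recovered with the tagged protein beyond the beads. Relative to untagged cells, 9 of the 10 SR genes were lower and 0 higher, where 62.0% of 19993 genes were called (29.8% higher and 32.2% lower). The median of the 10 was -0.68 on the log2 scale and that of all genes -0.097. Srsf6 alone did not pass. IP values are shares of the recovered RNA of a library, not amounts, so a lower share does not show that less of a transcript was bound.

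**Figure D3:**
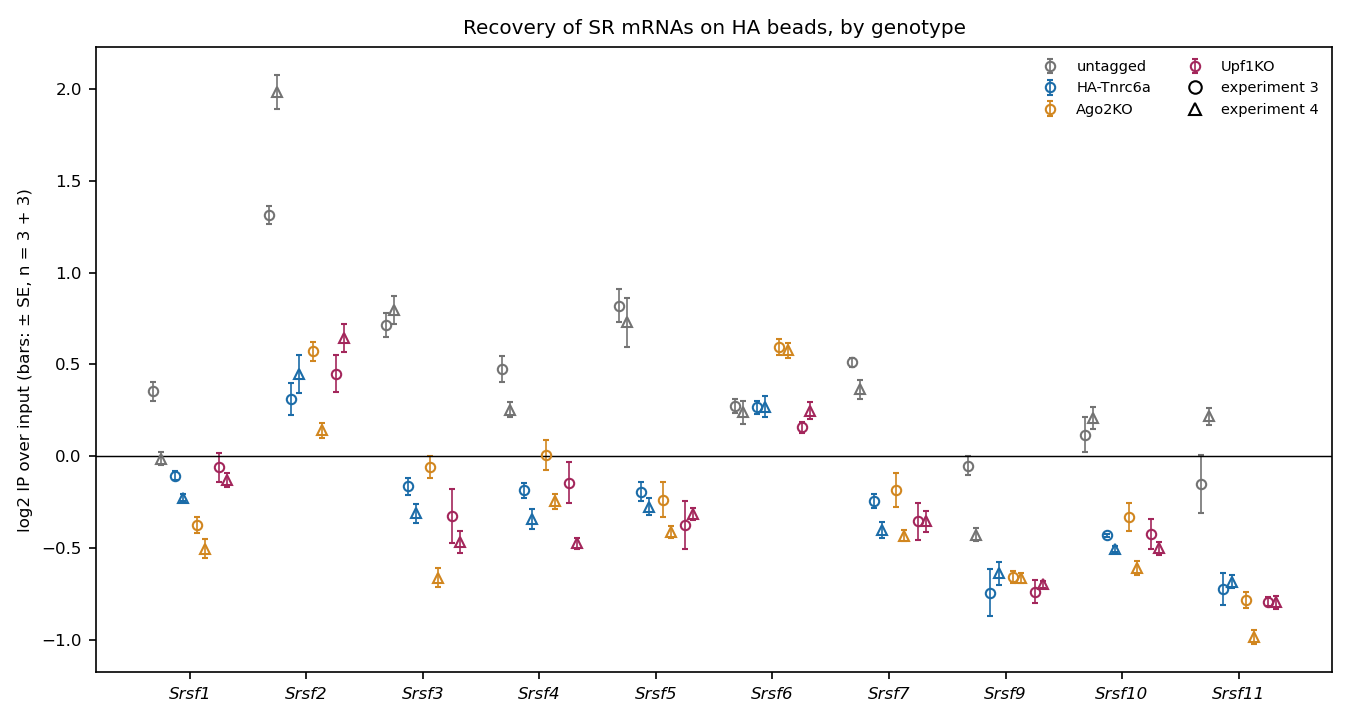
Log2 ratio of IP to input for each gene, genotype and experiment (mean of 3 IPs less mean of 3 inputs, bars ± SE). In untagged cells Srsf2 lies at 1.32 and 1.98 and in the 3 tagged genotypes between 0.14 and 0.64, while Srsf6 is at 0.24 to 0.28 in both untagged and HA-Tnrc6a cells and highest in Ago2 knockout cells.

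For Srsf2 the log2 ratio of IP to input was 1.32 ± 0.050 and 1.98 ± 0.091 (SE) in untagged cells of experiments 3 and 4, and 0.31 ± 0.087 and 0.45 ± 0.10 in HA-Tnrc6a cells. HA-Tnrc6a IPs held 521, 621 and 624 CPM and 793, 635 and 642 CPM, all below the lowest untagged IP (1055 CPM). The enrichment was -1.26 ± 0.080 on the log2 scale (adjusted p = 1.21e-15, edgeR), so the ratio was 2.39-fold lower in tagged cells. With TMM scaling, Srsf2 was still above its input in HA-Tnrc6a IPs of both experiments. This ratio was not computed with library totals. In experiment 3 the TMM factors were 0.82 to 0.89 for HA-Tnrc6a IPs and 1.07 to 1.12 for their inputs.

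Srsf5 and Srsf3 had the next lowest enrichments, -1.003 ± 0.082 and -0.98 ± 0.068. Srsf5 had a ratio of 0.82 ± 0.090 and 0.73 ± 0.13 in untagged cells and -0.19 ± 0.051 and -0.27 ± 0.048 in HA-Tnrc6a cells. Srsf3 went from 0.72 ± 0.066 and 0.80 ± 0.079 to -0.16 ± 0.047 and -0.31 ± 0.054. Both were thus above input without the tag and below input with it. Srsf7 (-0.75 ± 0.060), Srsf11 (-0.73 ± 0.083), Srsf10 (-0.62 ± 0.066), Srsf4 (-0.62 ± 0.066), Srsf9 (-0.44 ± 0.075) and Srsf1 (-0.33 ± 0.058) completed the 9, with adjusted p-values up to 1.02e-05 (Srsf1). Srsf11 (log2 ratio -0.73 and -0.68) and Srsf9 (-0.75 and -0.64) had the lowest ratios in HA-Tnrc6a cells.

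Srsf6 was the exception, with a log2 ratio of 0.28 ± 0.038 and 0.24 ± 0.062 in untagged cells and 0.27 ± 0.037 and 0.27 ± 0.060 in HA-Tnrc6a cells. Untagged IPs had 460.4, 502 and 487 CPM and 489, 429 and 444 CPM, and HA-Tnrc6a IPs 440.1, 449 and 439 CPM and 543, 484 and 478 CPM. Its enrichment was 0.022 ± 0.064 (adjusted p = 0.783, 95% interval -0.10 to 0.15), and -0.14 with library totals (adjusted p = 0.0790). The 9 and 0 held under every alternative run: RLE, library totals, no count filter, DESeq2, all 48 libraries, each experiment alone, the replicate block, the IPs without their inputs and each library left out in turn. The interaction with experiment passed for 0 of the 10 in edgeR, where 0.365% of all genes were called (41 higher and 32 lower, 26 and 456 with library totals, 24 and 59 with RLE). Srsf2 passed that test in DESeq2 (-0.54, adjusted p = 0.0392), with library totals (-0.67, adjusted p = 0.0263) and without replicate 4 of the HA-Tnrc6a IPs (-0.60, adjusted p = 0.0224). Srsf9 passed it without replicate 3 (0.64, adjusted p = 0.0148) or replicate 4 (0.57, adjusted p = 0.0406) of the same IPs, and at an unadjusted p under 0.05 3 of the 10 passed.

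The other SR-related genes had a lower enrichment in 19 of 28 and a higher one in 4 (Srrm4, Scaf8, Luc7l2 and Son), with a median of -0.46 (23 lower and 3 higher with library totals). Over all genes, 32.2% were lower and 29.8% higher with TMM. Son did not pass with library totals (0.021, adjusted p = 0.8287) or in experiment 4 alone (-0.0043, adjusted p = 0.966), nor Luc7l2 in experiment 4 alone (0.18, adjusted p = 0.0549). Luc7l3 (-1.19 ± 0.077), Pnn (-1.11 ± 0.079), Arglu1 (-1.07 ± 0.070) and Tra2b (-0.87 ± 0.070) were among the 19. Srrm4, a splicing activator of neural microexons, had the highest value of this list (1.42 ± 0.23). Of the kinases and importers 4 were higher and 4 lower, and of the decay factors 3 were higher and 5 lower (1 and 5 with library totals). The genes that overlap members moved with them for Srsf2 (Mfsd11 -0.90 ± 0.10) and Srsf4 (Gm12992 -0.61 ± 0.065) and against them for Srsf9 (Gatc 0.74 ± 0.099).

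Recovery with HA-Tnrc6a was then compared between each knockout and HA-Tnrc6a cells, as the difference of their IP over input ratios. None of the 10 SR genes had a called higher enrichment in HA-Tnrc6a than in untagged cells, and no untagged background was subtracted here. The values therefore do not show a change in RNA bound to Tnrc6a. For the Upf1 knockout label, 0 of the 10 SR genes passed in edgeR (and 0 in DESeq2), where 4.49% of 19966 genes were called (2.92% higher and 1.57% lower, or 583 and 313 genes, 224 and 778 with library totals and 352 and 315 with RLE). The 10 values lay between -0.10 and 0.22 and the lowest adjusted p was 0.126. At an unadjusted p under 0.05 there were 2, Srsf1 and Srsf2. The interaction with experiment passed for 0 of the 10 as well (0 at an unadjusted p under 0.05), where 0.115% of all genes were called (0.11% higher and 0.00501% lower). The IPs alone, without inputs, gave 6 calls (Srsf4 higher by 0.46, and Srsf3, Srsf6, Srsf7, Srsf9 and Srsf11 lower), a comparison that contains the lysate differences by its construction.

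In Ago2 knockout cells 3 of the 10 passed, 1 higher and 2 lower, where 21.3% of 19995 genes were called (9.09% higher and 12.3% lower). Srsf6 had 674, 618 and 663 CPM in Ago2 knockout IPs of experiment 3 and 655, 622 and 685 CPM in experiment 4, above all HA-Tnrc6a IPs given above. Its log2 ratio of IP to input was 0.60 ± 0.043 and 0.58 ± 0.041, against 0.27 and 0.27 in HA-Tnrc6a cells, and the difference was 0.32 ± 0.063 (adjusted p = 0.000276, edgeR). Srsf6 thus had a higher share both in the Ago2 knockout lysate and, relative to that lysate, in the IP.

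Srsf1 went the other way, with 375, 351 and 342 CPM and 385, 363 and 411 CPM in Ago2 knockout IPs against 402, 402 and 393 CPM and 480.1, 473 and 468 CPM in HA-Tnrc6a IPs. The ranges did not overlap within an experiment, and the recovery differed by -0.27 ± 0.061 (adjusted p = 0.000887, edgeR). Srsf11 differed by -0.19 ± 0.064 (adjusted p = 0.0341), a call lost when any 1 of 15 of the 24 libraries was left out (adjusted p-values of 0.0533 to 0.0973), with library totals (0.0813) and with all 48 libraries in 1 fit (0.0650). Those 15 were replicates 1, 2, 4 and 6 of the HA-Tnrc6a inputs, 2 to 5 of the Ago2 knockout inputs, 3, 5 and 6 of the HA-Tnrc6a IPs and 3 to 6 of the Ago2 knockout IPs. In experiment 3 alone none of the 3 passed (Srsf6 0.31, adjusted p = 0.0731; Srsf1 -0.29, 0.0994; Srsf11 -0.082, 0.730). In experiment 4 alone all 3 passed, and so did Srsf2 (-0.30) and Srsf3 (-0.34).

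**Figure D4:**
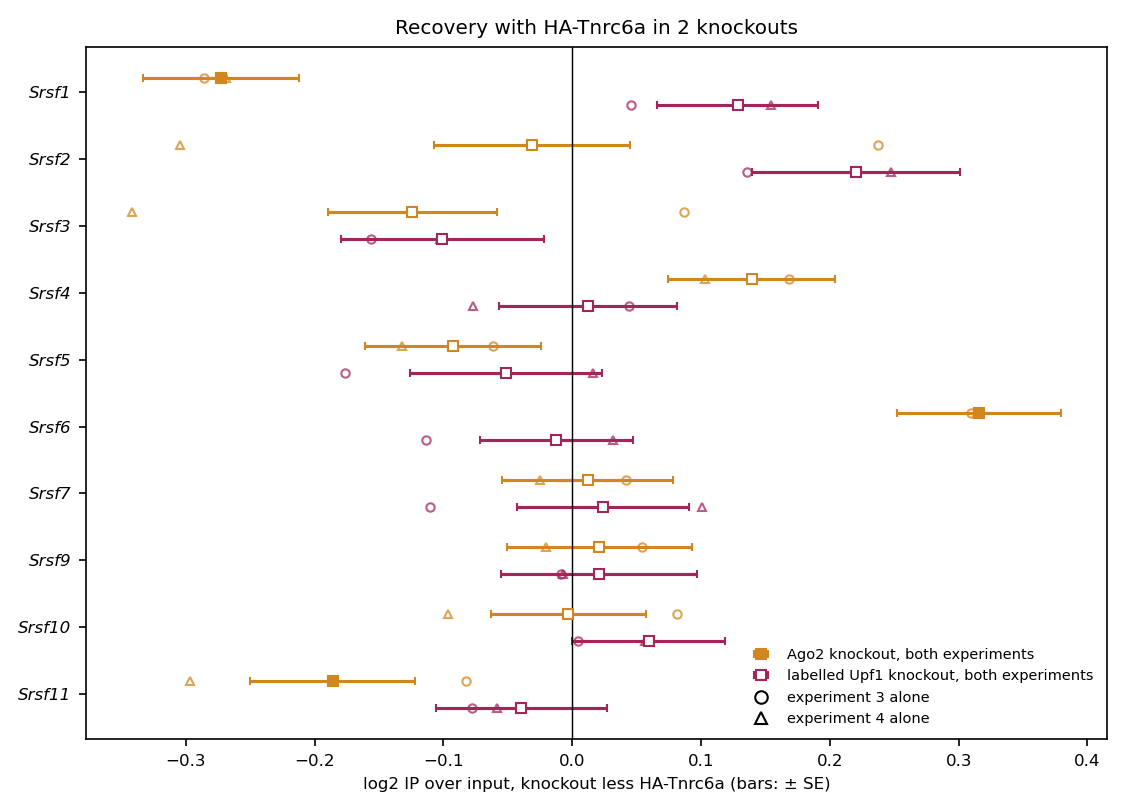
Difference in log2 IP over input between each knockout and HA-Tnrc6a cells, with no untagged background subtracted. Squares with bars are estimates over both experiments ± SE (filled at an adjusted p under 0.05), circles and triangles the estimates in each experiment alone. In Ago2 knockout cells Srsf6 lies at 0.32 and Srsf1 at -0.27, and no gene passes for the Upf1 knockout label.

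In this recovery comparison Srsf2 was at 0.24 in experiment 3 and -0.30 in experiment 4, and Srsf3 at 0.087 and -0.34. The log2 ratio of IP to input in Ago2 knockout cells was 0.57 ± 0.051 in experiment 3 and 0.14 ± 0.042 in experiment 4 for Srsf2, and -0.058 ± 0.060 and -0.66 ± 0.052 for Srsf3. The interaction did not pass for any of the 10 in edgeR (2 at an unadjusted p under 0.05), where 0.195% of all genes were called, but passed in DESeq2 for Srsf2 (-0.58, adjusted p = 0.0149) and Srsf3 (-0.47, adjusted p = 0.00980). In the lists, recovery under the Upf1 knockout label was higher for 3 SR-related genes and lower for 1 (1 and 3 with library totals), higher for 2 kinases and importers (1 higher and 1 lower with library totals) and changed for 0 decay factors (1 lower with library totals). That comparison called 4.49% of all genes. Of the genes called, Sfswap, Scaf11, Arglu1, Ppig and Srpk1 did not pass in experiment 3 alone. In Ago2 knockout cells recovery was higher for 2 and lower for 5 SR-related genes, and higher for 2 and lower for 2 in each of the other lists. That comparison called 21.3% of all genes. Srrm1, U2af2, Scaf4, Scaf11, Arglu1, Ppig, Dyrk1a, Tnpo1, Upf2 and Upf3a did not pass in experiment 3 alone. In experiment 4 alone Srrm1, U2af2, Clk4 and Tnpo1 did not pass, and with library totals Srrm1, U2af2 and Upf2 did not.

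Across the 16 means of genotype, fraction and experiment, Srsf3 and Srsf7 varied most alike of any pair of the 10 (Pearson r = 0.958 of log2 CPM). Srsf3 also had the highest correlation with the mean of the other 9 (r = 0.949). Srsf6 had the lowest (r = -0.22), and its lowest partner was Srsf11 (r = -0.48). The genes outside the 10 whose means were most like the average of the 10 were Mrpl40 (r = 0.972), a protein of the mitochondrial ribosome, Nop56 (r = 0.967), a core protein of box C/D small nucleolar particles, and the pseudogene Srsf3-ps (r = 0.966), out of 10830 genes with a mean log2 CPM of at least 3. These correlations are a description: the 16 means share their libraries and scaling.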

How the data were processed

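RNA-seq libraries were made with a stranded total RNA kit, per the labels' protocols, from 24 inputs and 24 HA immunoprecipitates. The authors deposited 1 table of read counts per gene and library. The submitters' processing notes name bcl2fastq 2.20, STAR 2.7.3a and the builds GRCm38 and mm10. The counter and its strand setting are not given in the sources used here. A further 48 columns headed rpkm were not used. Gene lengths come from the deposited table. The table itself names 16427 genes, the reference named 3725 more by their Ensembl identifiers, and 19 had no symbol.

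Columns 1 to 3 of a genotype and fraction were taken as experiment 3 and columns 4 to 6 as experiment 4, from their order. Counts were tested in edgeR 4.0.16 (R 4.3.3, limma 3.58.1): filterByExpr with a minimum count of 10, TMM scaling, robust quasi-likelihood F-tests, only the libraries of the comparison, 1 coefficient per group and experiment, and contrasts averaged over the 2 experiments. P-values were adjusted by Benjamini-Hochberg over all tested genes, at 0.05. An SE is the log2 fold change divided by the square root of F. CPM values use TMM over all 48 libraries. On simulated counts with the design of the lysate Upf1 comparison (19349 genes), 74.6% of genes changed by 0.25 (log2) were called, and 97.0% at 0.5. For the enrichment (19416 genes) these shares were 55.2% and 88.1%. False calls were 4.74% and 6.98% of all calls in the 2 simulations. All genes were drawn with 1 fixed dispersion, and only genes above a count floor were changed. Some real IPs spread more (Srsf2 in HA-Tnrc6a IPs of experiment 4, 690 ± 89.4 CPM, mean ± SD). The shares therefore need not hold for the real libraries.

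The members, the gene lists (other SR-related genes, kinases and importers, decay factors, cell type markers) and the tests were chosen with earlier results of these data known. The named genes are all 10 members, list genes that passed, the overlapping neighbours, the label checks and the 3 genes most like the average of the 10. Alternatives were RLE size factors, library totals, no count filter, DESeq2 1.42.0, all 48 libraries in 1 fit, each experiment alone, a replicate block, IPs without inputs, and each library left out. No 2 replicates agreed within sampling noise (chi-square per degree of freedom 1.96 to 36.2 over 48 pairs).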

Additional observations from a re-analysis of the deposited data

Results flagged for a closer look

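Among 80 groups of 6 libraries (10 genes, 8 groups), 3 held a library far from the other 5, where chance gives about 1 in 20. The lowest Srsf6 value in Ago2 knockout inputs was 420.0 CPM. The highest Srsf7 value was 271 CPM in Ago2 knockout IPs and 424 CPM in untagged IPs. Each group joins both experiments.

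The lysate difference between cells labelled Upf1 knockout and HA-Tnrc6a cells differed between the experiments, by the interaction term (experiment 4 less experiment 3, log2), for Srsf1 (-0.32), Srsf2 (-0.24), Srsf5 (-0.19), Srsf6 (-0.26) and Srsf7 (-0.13). The lysate difference between Ago2 knockout and HA-Tnrc6a cells did so for Srsf3 (-0.21) and Srsf4 (-0.32).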

How the results depend on the processing

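Of the 10 genes, 9 passed in the lysate for the Upf1 knockout label and 9 in the enrichment with any 1 library left out. With all 48 libraries in 1 fit, calls fell from 5 to 2 for the difference between experiments under the Upf1 knockout label, from 2 to 0 for that under Ago2 knockout, from 9 to 5 between the knockouts and from 2 to 1 for untagged inputs. Experiment 3 alone gave 0 calls for untagged inputs and 0 for recovery in Ago2 knockout cells (3 over both), and experiment 4 alone gave 5 and 5. DESeq2 gave 1 call for the difference between experiments in enrichment and 2 for that in Ago2 knockout recovery (0 and 0 in edgeR), and library totals gave 1 for the former. IPs without inputs gave 6 calls for Upf1 knockout recovery and 3 for the difference between experiments in Ago2 knockout recovery (0 and 0 with inputs). With the replicate block, 5 genes passed in the Ago2 knockout lysate (3 without). The main fits did not pair inputs with IPs by number. Deviations of the 24 pairs correlated at a mean of 0.104 (-0.0609 to 0.509), 10 above 0.1. Each input was set against the 3 IPs of its genotype and experiment, and 17 of 24 correlated best with their own number. The numbers may therefore mark pairs, and a fit pairing input and IP within each genotype was not run. Leaving out 1 library gave 3 to 5 calls in the Ago2 knockout lysate, 0 to 2 for the difference between experiments in enrichment, 4 to 5 and 2 to 3 for the lysate differences between experiments (Upf1 label and Ago2), 8 to 9 between knockouts, 2 to 3 for untagged inputs, 8 to 10 in untagged IPs, 0 to 0 and 2 to 3 for recovery (Upf1 label and Ago2). Log2 fold changes that changed sign were, for the Upf1 label lysate, Srsf1 (0.025 with library totals, 0.15 in experiment 3); for the Ago2 lysate, Srsf3 (-0.0057 in experiment 4); between knockouts, Srsf9 (0.023 with library totals, 0.079 in experiment 4) and Srsf1 (0.053 in experiment 3); in untagged IPs, Srsf1 (-0.0064), Srsf10 (-0.0099) and Srsf11 (-0.13) with library totals, and Srsf11 (-0.14 in experiment 3, -0.012 to 0.10 without 1 of the untagged IPs). The enrichment of Srsf6 was -0.14 with library totals, -0.0007 to 0.050 without 1 of the untagged IPs, and -0.010 without replicate 4 of the HA-Tnrc6a IPs. The cause of these changes was not tested.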

Other observations

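Among the kinases and importers of SR proteins, mRNAs with a higher enrichment in HA-Tnrc6a cells than in untagged cells were those of Dyrk1a (1.57 ± 0.071, log2 ± SE), Tnpo1 (1.21 ± 0.087), Srpk2 (0.85 ± 0.071) and Clk4 (0.53 ± 0.10). Prpf4b (-0.94 ± 0.083) and Clk1 (-0.69 ± 0.079) were lower. Clk4 had a higher recovery under the Upf1 knockout label (0.70 ± 0.085) and in Ago2 knockout cells (0.41 ± 0.082). In experiment 4 alone neither the enrichment of Clk4 (0.35, adjusted p = 0.0927) nor its recovery in Ago2 knockout cells (0.23, adjusted p = 0.174) passed in edgeR.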
